A study of Mus musculus with 18 samples.

Results

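Serotonin receptor transcripts were examined across 3 cell fractions and 3 treatments of the mouse frontal cortex. The set was 10 genes, taken by symbol from 56883 gene symbols in the deposited count tables: Htr1a, Htr1b, Htr1f, Htr2a, Htr2c, Htr3a, Htr4, Htr5a, Htr6 and Htr7. Mice of the line B6;D2-Tg(S100B-EGFP)1Wjt/J, which carry a green fluorescent protein under the S100B promoter in every group, controls included, received 1 intraperitoneal injection a day over 14 days. The groups were given clozapine at 10 mg/kg, risperidone at 1 mg/kg or vehicle between postnatal days 60 and 74, and the animals were killed on day 75. The design text names mice of both sexes, while the housing text names adult males. Frontal cortices of 5 animals were pooled for each sample and split in sequence by immunopanning, in which antibody-coated dishes hold back one cell type after another. Endothelial cells were removed, microglia were captured through CD45, the oligodendrocyte lineage was removed, and neurons and astrocytes were then taken through Thy1 and HepaCAM. Each treatment had 2 pools, numbered by batch in the labels, so the 18 libraries form 9 groups of n = 2, and 6 libraries stand for each fraction. Assigned counts ranged from 6520597 to 13391163 in neuron libraries, from 4714468 to 10651230 in astrocyte libraries and from 5283809 to 9530838 in microglia libraries.

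Serotonin is released in the cortex by axons of neurons whose cell bodies lie in the raphe nuclei of the brainstem, so cortical cells hold its receptors but not the enzymes that make it. All receptors of the set but one are G protein-coupled. The Htr1 and Htr5 genes encode receptors coupled to Gi/o proteins, which lower cyclic AMP and open potassium channels. The Htr2 genes encode receptors coupled to Gq, which activates phospholipase C, and Htr4, Htr6 and Htr7 encode receptors coupled to Gs, which raises cyclic AMP. Htr3a encodes a subunit of a ligand-gated cation channel that cortical interneurons are known to carry. Clozapine and risperidone are antipsychotic drugs that block the receptor encoded by Htr2a as well as dopamine receptors.

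In build GRCm39, Htr1b (ENSMUSG00000049511.6) lies at chr9:81510344-81515881 on the minus strand, Htr2a (ENSMUSG00000034997.6) at chr14:74878280-74946934 on the plus strand, Htr2c (ENSMUSG00000041380.14) at chrX:145745509-145980273 on the plus strand and Htr6 (ENSMUSG00000028747.11) at chr4:138788419-138802881 on the minus strand. Counts cover all annotated exons of a gene, coding and untranslated, so they do not separate isoforms.

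Levels are given as counts-per-million values of all assigned counts (CPM), each with the lowest, median and highest of the 6 libraries of a fraction. Htr2a, the main Gq-coupled receptor of cortical pyramidal neurons, lay at 15.3, 22.8 and 26.4 CPM in neurons, at 4.88, 11.4 and 16.4 CPM in astrocytes, and at 7.38, 15.2 and 25.5 CPM in microglia. Within each of the 6 pools the neuron library was above both other fractions, although the microglia range reached almost as high as the neuron range. Htr2c, the second Gq-coupled receptor and a transcript known to be edited by adenosine deaminases, lay at 15.4, 21.6 and 35.7 CPM in neurons, at 6.29, 14.3 and 19.0 CPM in astrocytes, and at 8.52, 15.2 and 29.1 CPM in microglia. It was also highest in the neuron library of all 6 pools, and its ranges overlapped between all fractions.

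Htr1b, the presynaptic Gi/o-coupled receptor that restrains transmitter release, lay at 15.6, 18.6 and 24.9 CPM in neurons, at 6.38, 11.5 and 12.7 CPM in astrocytes, and at 5.4, 13.8 and 20.0 CPM in microglia. Every neuron library was above every astrocyte library, and the neuron library was the highest of its pool in all 6 pools. Of the 10 receptors it was the only one whose neuron and astrocyte libraries did not overlap, which 2.21% of the 37310 tested genes showed in that direction. Of its exon bases 852 (18.0%) overlap the opposite-strand gene D430036J16Rik, and the counts carry no strand. Htr1a, which encodes the somatodendritic Gi/o-coupled receptor, lay at 8.35, 12.8 and 18.8 CPM in neurons, at 5.82, 8.52 and 14.1 CPM in astrocytes, and at 7.70, 10.6 and 18.1 CPM in microglia. Its neuron library was above that of each other fraction in 5 of 6 pools.

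Htr5a, a Gi/o-coupled receptor, lay at 6.93, 12.75 and 17.2 CPM in neurons, at 6.57, 11.95 and 16.6 CPM in astrocytes, and at 4.46, 9.25 and 12.5 CPM in microglia. The neuron library exceeded the microglia library in 5 of 6 pools and the astrocyte library in 2 of 6. Htr1f, a Gi/o-coupled receptor of low abundance, ranged from 3.92 to 8.53 CPM in neurons, from 3.18 to 7.59 CPM in astrocytes and from 3.38 to 15.6 CPM in microglia, where vehicle pool 2 alone lay above 6.71 CPM. No fraction stood apart for this gene.

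The Gs-coupled receptors were Htr4, Htr6 and Htr7. Htr6 lay at 5.89, 7.19 and 9.20 CPM in neurons, at 5.06, 10.9 and 16.1 CPM in astrocytes, and at 6.09, 6.965 and 16.6 CPM in microglia, and its neuron library exceeded each other fraction in only 2 of 6 pools. Htr7 lay at 4.65, 6.81 and 7.82 CPM in neurons, at 0.0939, 4.37 and 11.9 CPM in astrocytes, and at 3.57, 4.63 and 11.0 CPM in microglia; the lowest astrocyte value was 1 count, in risperidone pool 1. Htr4 ranged from 3.36 to 5.87 CPM in neurons, from 3.21 to 7.85 CPM in astrocytes and from 2.16 to 8.28 CPM in microglia. The channel subunit Htr3a had the lowest mean CPM of the 10 receptors in each fraction, at 0.267 to 1.88 CPM in neurons, 0.751 to 5.28 CPM in astrocytes and 1.14 to 3.79 CPM in microglia, and its neuron libraries held between 3 and 23 counts. In bulk RNA, fewer cells of a type and less RNA per cell cannot be told apart.

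**Figure D1:**
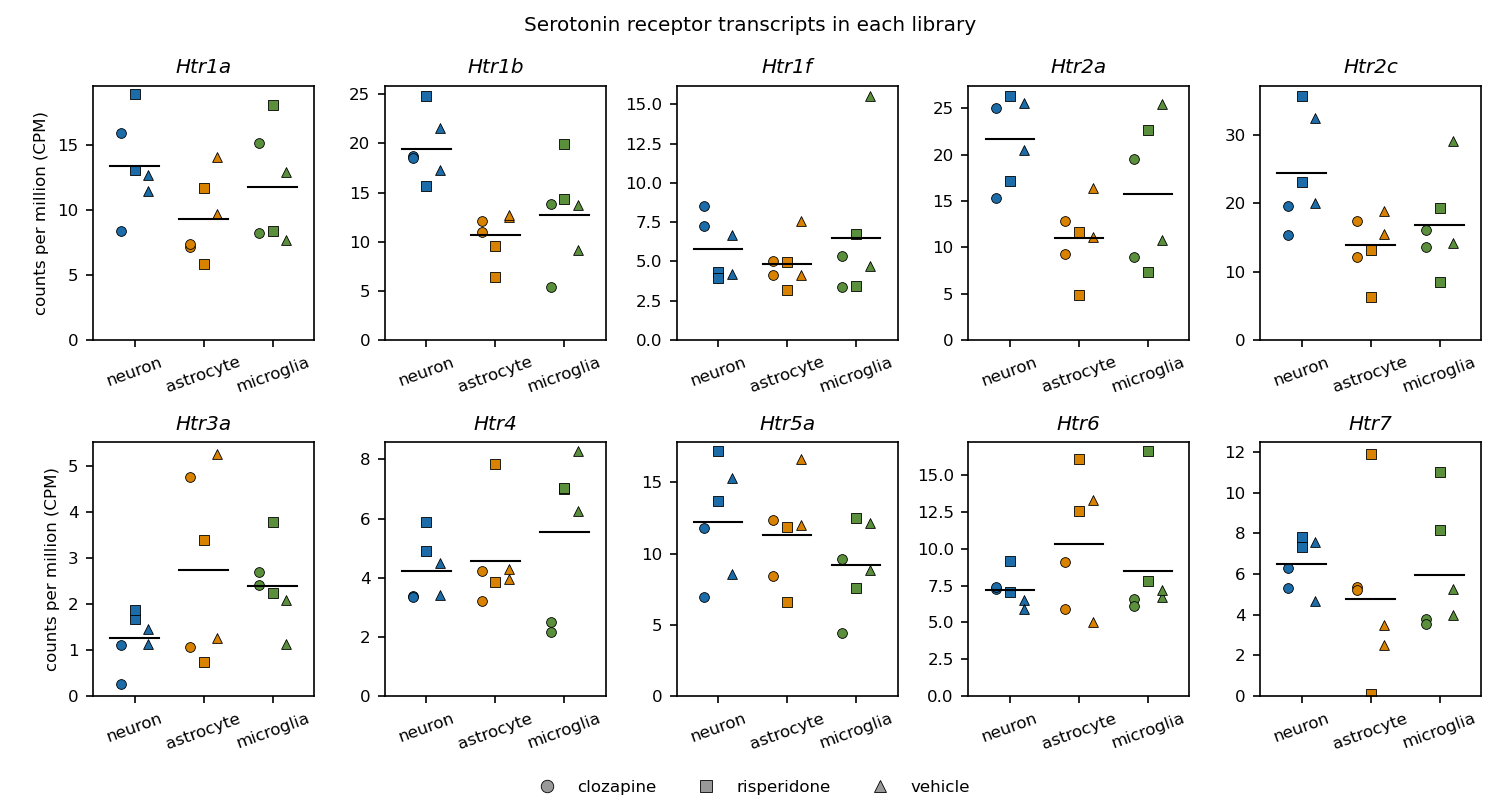
Level of each serotonin receptor in CPM (vertical axis, from 0, own scale per gene) in the neuron, astrocyte and microglia fractions. Each point is 1 library, its shape gives the treatment, and the line is the mean of 6 libraries; the neuron points of Htr1b lie above all astrocyte points, while those of Htr6 lie at 5.89 to 9.20 CPM within the range of the other fractions.

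Per kilobase of exon, the scale on which genes can be compared, the order in neurons was led by Htr1b with 4.12 ± 0.70 CPM per kb (SD, n = 6 libraries) and Htr2a with 3.86 ± 0.84. Htr6 followed with 3.09 ± 0.48, Htr1a with 2.98 ± 0.81, Htr2c with 2.62 ± 0.86, Htr5a with 2.28 ± 0.73, Htr1f with 2.26 ± 0.75 and Htr7 with 1.91 ± 0.38 CPM per kb. Neighbours in this order overlapped in their libraries down to Htr7, whose lowest library (1.37) stood above the highest of Htr4 (1.20), and Htr4 and Htr3a overlapped again. Htr2c, first by CPM, thus stood behind Htr1b, Htr2a, Htr6 and Htr1a per kilobase: its counted exons span 9328 bases, against 5606 for Htr2a and 2341 for Htr6. In astrocytes Htr6 had the highest mean with 4.42 ± 1.87 CPM per kb ahead of Htr1b with 2.26 ± 0.51. In microglia Htr6 had the highest mean with 3.64 ± 1.72 ahead of Htr2a with 2.82 ± 1.38. The libraries of these receptors overlapped in both glial fractions. In microglia the medians lay close together, at 2.98 for Htr6, 2.92 for Htr1b and 2.71 for Htr2a, and Htr6 reached 7.11 in risperidone pool 1, a library flagged below.

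Low levels were read against receptors that the cortex is not known to use. Summed over 1418 olfactory and vomeronasal receptor genes, chosen after values were seen, the level per library was 0.0263 to 0.295 CPM per kb in neurons, 0.160 to 0.747 in astrocytes and 0.276 to 0.802 in microglia. The 90th percentile of these genes ranged from 0.0635 to 0.676 CPM per kb in neurons, 0.302 to 1.60 in astrocytes and 0.607 to 1.53 in microglia. The share of all genes above it was not counted, and the bar differs between fractions. In neurons 9 of the 10 serotonin receptors exceeded this percentile in all 6 libraries, and Htr3a did so in 5. In astrocytes Htr1a, Htr1b, Htr2a, Htr5a and Htr6 did so in 6 libraries, Htr2c and Htr4 in 5, and Htr1f, Htr3a and Htr7 in 4. In microglia Htr4 did so in 2 libraries, Htr3a and Htr5a in 4, Htr1f, Htr2a and Htr2c in 5, and Htr1a, Htr1b, Htr6 and Htr7 in 6. The share of the level of a receptor in the glial fractions that this off-tissue signal makes up was not tested.

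**Figure D2:**
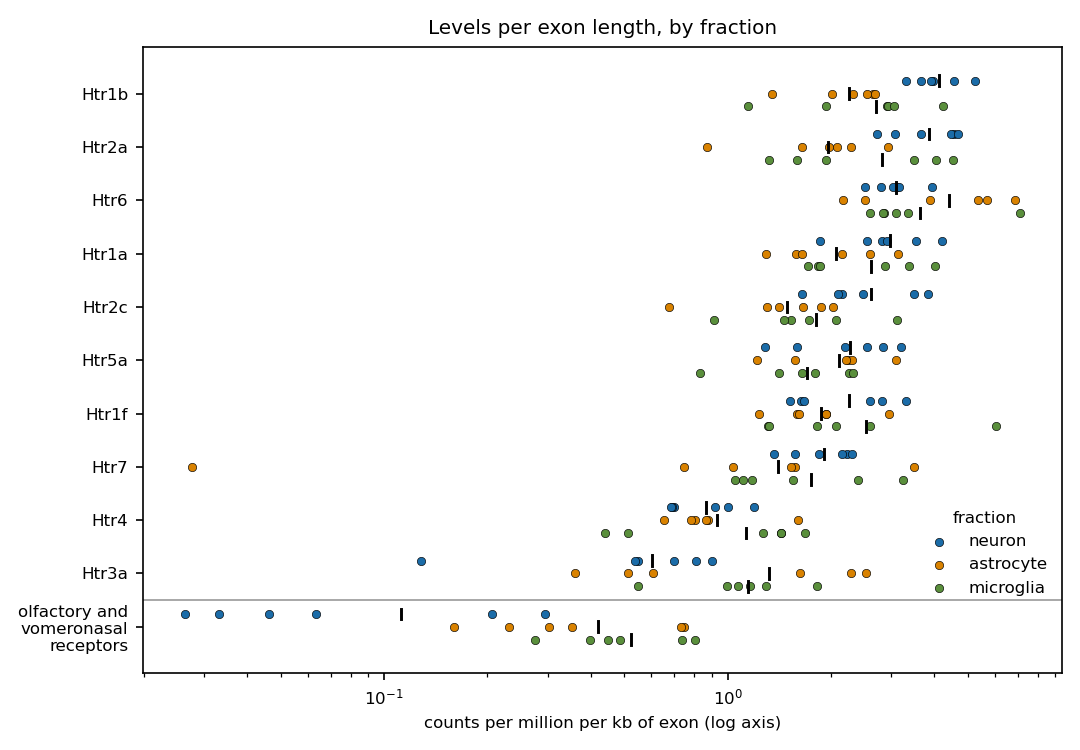
Level per kilobase of exon (horizontal log axis, CPM per kb) of the 10 serotonin receptors and of the summed olfactory and vomeronasal receptor genes, 1 point per library, with a tick at the mean of each fraction. The summed off-tissue genes stand at 0.0263 to 0.295 in neurons and at 0.276 to 0.802 in microglia, where Htr4 lies at 0.440 to 1.69.

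The fractions were compared to ask which receptors differ between cell types, with edgeR's quasi-likelihood test on all 18 libraries. Differences are on the log2 scale after TMM scaling, each with its standard error (SE), and genes with a Benjamini-Hochberg adjusted p under 0.05 were called. Against microglia, 5 of the 10 receptors were higher in neurons and 0 lower, where 18.8% of all tested genes were called higher and 28.2% lower (47.1% in all). The median over the 10 receptors was 0.80 and that over all genes −0.62. Htr1b was higher by 1.25 (SE 0.27; edgeR adjusted p = 0.000841), Htr2c by 1.10 (SE 0.24; 0.00109), Htr2a by 1.06 (SE 0.31; 0.00812), Htr5a by 0.98 (SE 0.27; 0.00587) and Htr1a by 0.77 (SE 0.27; 0.0255). The other receptors did not pass: Htr7 differed by 0.82 (SE 0.45), Htr1f by 0.44 (SE 0.35), Htr6 by 0.37 (SE 0.26), Htr4 by 0.33 (SE 0.31) and Htr3a by −0.40 (SE 0.54), the last with the widest error of the set. All 10 receptors passed the filter on low counts.

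Against astrocytes, 4 of the 10 receptors were higher in neurons and 0 lower, where 9.17% of all genes were called higher and 14.6% lower (23.7% in all). The median over the 10 receptors was 0.85 and that over all genes −0.46. Htr2a was higher by 1.55 (SE 0.31; edgeR adjusted p = 0.00387), Htr1b by 1.4 (SE 0.27; 0.00343), Htr2c by 1.32 (SE 0.25; 0.00331) and Htr1a by 1.08 (SE 0.28; 0.0107). Htr7 differed by 1.12 (SE 0.46; edgeR adjusted p = 0.0761) and was called with the pool as a block, at 1.20 (edgeR adjusted p = 0.0486), and without the filter on low counts, at 1.08 (0.0232). Its value ran from 0.77 to 2.72 with single libraries left out, and it was called without astrocyte risperidone replicate 2 (2.72, edgeR adjusted p = 0.00233) or neuron risperidone replicate 1 (1.19, 0.0476). Against microglia it was called without astrocyte risperidone replicate 1 (0.75, edgeR adjusted p = 0.0363) or 2 (0.71, 0.0494). Htr5a differed by 0.62 (SE 0.27; adjusted p = 0.0847 in edgeR), Htr1f by 0.62 (SE 0.36), Htr4 by 0.40 (SE 0.31), Htr6 by 0.02 (SE 0.26) and Htr3a by −0.58 (SE 0.54), none of them called.

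The size of these differences depended on scaling. Scaled by library totals alone, an alternative added after values were seen, the median of all genes moved to −1.13 against microglia and −0.93 against astrocytes, with 9.76% higher and 38.3% lower against microglia, and 3.91% higher and 25.9% lower against astrocytes. Of the receptors only Htr1b was then called against microglia, at 0.65 (edgeR adjusted p = 0.0379), while Htr2c differed by 0.52, Htr2a by 0.45, Htr5a by 0.40 and Htr1a by 0.18. Against astrocytes Htr2a (1.01), Htr1b (0.89) and Htr2c (0.82) remained called and Htr1a (0.55) did not. All of these stood above the median of all genes under both scalings. By library totals Htr6 differed by −0.19 against microglia and −0.47 against astrocytes and Htr4 by −0.25 and −0.11, which are also above the median of all genes. The off-tissue receptors had a median level of 0.0547 CPM per kb in neurons, 0.327 in astrocytes and 0.468 in microglia. The part of such low signal in the median of all genes was not tested, so a place above that median does not by itself show enrichment in neurons.

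Within batch 1 alone the difference from microglia was 1.20 for Htr2a, 1.16 for Htr1b, 1.14 for Htr2c, 0.85 for Htr5a and 0.71 for Htr1a, and within batch 2 alone it was 0.78, 1.07, 0.82, 0.86 and 0.61 in the same order. Against astrocytes batch 1 gave 0.98 for Htr2a, 0.92 for Htr1b, 1.12 for Htr2c and 0.65 for Htr1a, and batch 2 gave 1.88, 1.72, 1.39 and 1.33. The direction held within both batches for each of these receptors. Against microglia Htr1b, Htr2a and Htr2c were called in both batches, and against astrocytes Htr2c alone was, since Htr2a (edgeR adjusted p = 0.07), Htr1b (0.104) and Htr1a (0.236) were not called in batch 1. DESeq2 did not call Htr1a against microglia, at an adjusted p of 0.101. With single libraries left out, Htr1b and Htr2c kept their calls in both comparisons, and Htr2a kept its call against astrocytes. Against microglia Htr2a was not called without microglia vehicle replicate 1 (0.81), microglia risperidone replicate 1 (0.78) or neuron risperidone replicate 2 (0.71), and Htr5a not without neuron vehicle replicate 2 (0.65). Htr1a lost its call against microglia in 11 of 18 such fits, with the lowest value, 0.44, without neuron risperidone replicate 2, and against astrocytes without that library (0.79) or neuron clozapine replicate 2 (0.87).

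**Figure D3:**
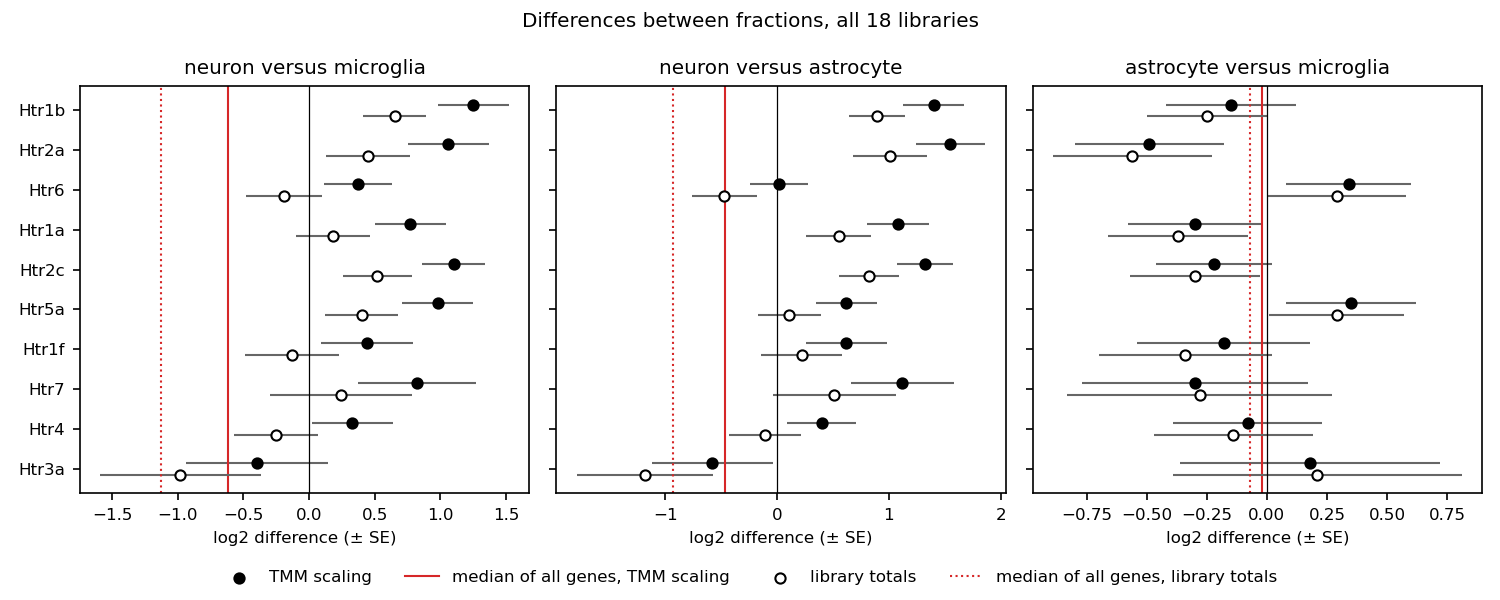
Difference between fractions for each receptor (horizontal axis, log2, ± SE) with TMM scaling (filled) and with library totals (open); the vertical lines at −0.62 and −0.46 mark the median of all genes with TMM scaling and the dotted lines that by library totals. Htr1b, Htr2a and Htr2c lie right of 0 in both neuron panels under both scalings, and no receptor was called in the panel for astrocytes and microglia.

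Astrocytes and microglia were compared with each other in the same way. edgeR called 0 of the 10 receptors, where 6.85% of all genes were called higher and 6.18% lower (13.0% in all), and none of the 10 had an unadjusted p under 0.05, against 7940 of all genes. DESeq2 and the fit with the pool as a block also called 0. Htr5a differed by 0.35 (SE 0.27), Htr6 by 0.34 (SE 0.26) and Htr3a by 0.18 (SE 0.54). Htr2a differed by −0.49 (SE 0.31), Htr1a by −0.30 (SE 0.28), Htr7 by −0.30 (SE 0.47), Htr2c by −0.22 (SE 0.24), Htr1f by −0.18 (SE 0.36), Htr1b by −0.15 (SE 0.27) and Htr4 by −0.08 (SE 0.31). In batch 2 alone Htr2a was lower in astrocytes, at −1.10 (edgeR adjusted p = 0.00559), and in batch 1 alone it differed by 0.22. Htr7 was called lower, at −2.02, in the fit without astrocyte risperidone replicate 2, which leaves the library with 1 count as the only risperidone library of that fraction.

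Markers of other cells moved with these differences. Their counts are to be read beside all genes, of which 18.8% were called higher and 28.2% lower in neurons against microglia (median −0.62). Against astrocytes 9.17% were called higher and 14.6% lower (median −0.46). The summed level of 10 pan-neuronal markers was 6124 to 10190 CPM in neurons, 2473 to 4951 CPM in astrocytes and 1381 to 5114 CPM in microglia, so transcripts of neuronal markers were present in every glial library. Of these markers 10 of 10 were higher in neurons against microglia and 10 of 10 against astrocytes, with list medians of 1.97 and 1.68, as in Rbfox3, a neuronal splicing factor, at 2.08 and 1.55. In microglia the pool 2 libraries of vehicle, clozapine and risperidone held 4054, 5114 and 2844 CPM of pan-neuronal markers and 25.5, 19.5 and 22.7 CPM of Htr2a. The pool 1 libraries held 1654, 1738 and 1381 CPM of these markers and 10.8, 8.91 and 7.38 CPM of Htr2a in the same order. All 3 libraries with the higher marker level thus had the higher Htr2a level, but they are also those of batch 2, so the marker level and batch cannot be told apart. Within batch 2 the clozapine library had the most markers and the lowest Htr2a. Within batch 1 the risperidone library had the lowest level of both. The part of neuronal transcripts in the microglial level was not tested.

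Further cell types were covered by the same kind of count, to be read beside the same shares and medians of all genes. The 10 microglia markers summed to 40.5 to 616 CPM in neurons, 268 to 998 CPM in astrocytes and 3377 to 6640 CPM in microglia, and 10 of 10 were lower in neurons against microglia (median −3.97). Astrocyte markers summed to 3659 to 6749 CPM in neurons, 11690 to 18050 CPM in astrocytes and 1988 to 4791 CPM in microglia. Oligodendrocyte markers, whose cells were to be depleted, summed to 4971 to 27460 CPM in neurons and 8742 to 36080 CPM in astrocytes, against 609 to 2662 CPM in microglia. Choroid plexus markers, from a tissue known for strong Htr2c expression, summed to 14.6 to 49.4 CPM in neurons, 7.61 to 162 CPM in astrocytes and 36.3 to 164 CPM in microglia. They were highest in clozapine pool 1 of both glial fractions, where Htr2c stood at 12.2 CPM in astrocytes and 13.6 CPM in microglia. The part of choroid plexus transcripts in the Htr2c levels was not tested. Striatal projection neuron markers, from a region next to the dissected cortex and known for Htr1b and Htr6, summed to 251 to 608 CPM in neurons, 152 to 297 CPM in astrocytes and 118 to 430 CPM in microglia, and 7 of 9 were higher in neurons in each comparison. Markers of GABAergic interneurons, the known cortical site of Htr3a, summed to 523 to 1176 CPM in neurons, 272 to 752 CPM in astrocytes and 244 to 774 CPM in microglia. Of them 12 of 12 were higher in neurons against microglia and 10 of 12 against astrocytes, while Htr3a was not. Genes of the dissociation response, which cells are known to induce while a tissue is taken apart, summed to 898 to 1577 CPM in neurons, 864 to 3238 CPM in astrocytes and 3161 to 8529 CPM in microglia. Of them 7 of 10 were lower in neurons against microglia (median −2.05, beside −0.62 for all genes). Against astrocytes 0 of 10 were called, with a median of −0.37 near the −0.46 of all genes. The part of this response in the receptor differences was not tested.

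**Figure D4:**
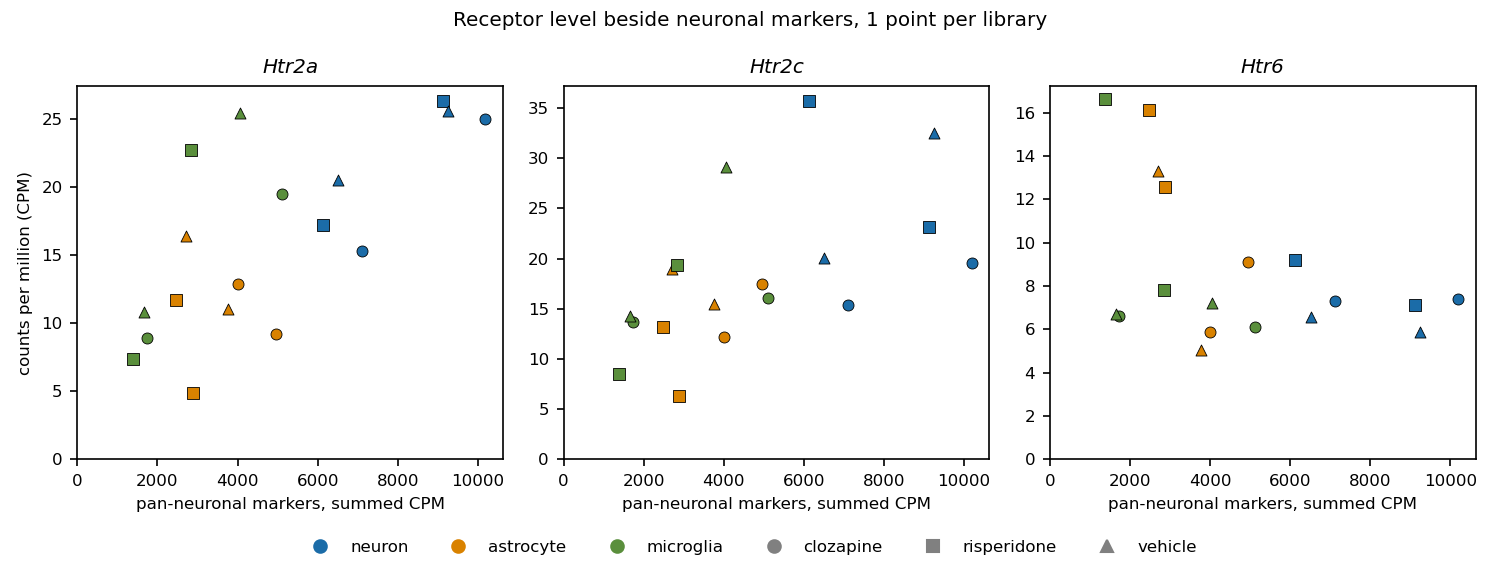
Level of Htr2a, Htr2c and Htr6 (vertical axis, CPM) against the summed level of 10 pan-neuronal markers (horizontal axis, CPM), 1 point per library, colour for the fraction and shape for the treatment. Neuron libraries lie at 6124 CPM of markers or above, the 3 microglia libraries with the most markers have the highest microglial Htr2a, and Htr6 reaches its highest level, 16.6 CPM, in the library with the fewest markers.

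The family's 4 other receptor genes were counted for comparison. Htr2b, a Gq-coupled receptor known from microglia, averaged 2.39 ± 1.19 CPM in neurons, 4.02 ± 1.24 CPM in astrocytes and 6.74 ± 1.46 CPM in microglia (SD, n = 6). Each microglia library was above each neuron library, and the gene was called lower in neurons, at −1.0 (SE 0.36; edgeR adjusted p = 0.0263), where 15.9% of all genes had libraries that did not overlap in this direction. Of its exon bases 252 overlap the opposite-strand gene Psmd1. Htr1d averaged 2.03 ± 1.63 CPM in neurons, 2.90 ± 1.98 CPM in astrocytes and 2.82 ± 1.03 CPM in microglia, and was not called in any comparison of fractions. Htr3b ranged from 0 to 1.38 CPM in neurons, 0.188 to 8.40 CPM in astrocytes and 0.612 to 4.32 CPM in microglia, and Htr5b reached at most 1.45, 2.73 and 2.43 CPM in the same order.

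Genes that act with the receptors were counted from lists of pathway members, to be read beside the 18.8% of all genes called higher in neurons against microglia (all-gene median −0.62) and the 9.17% against astrocytes (−0.46). Of 8 Gq pathway genes 8 were higher in neurons against microglia and 8 against astrocytes, with list medians of 1.73 and 1.21. Itpr1, the calcium release channel opened by inositol trisphosphate, was higher by 2.31 (SE 0.38) and 1.71 (SE 0.37). Of 9 Gs pathway genes 8 were higher against microglia and 7 against astrocytes, including the adenylyl cyclase Adcy5 by 2.19 (SE 0.31) and 1.5 (SE 0.31). Of 8 Gi/o pathway genes 6 were higher and 1 lower against microglia, and 4 were higher against astrocytes. The potassium channel subunit Kcnj9 was higher by 1.57 (SE 0.28) and 1.29 (SE 0.28), and the G protein subunit Gnai3 was lower against microglia, at −1.20 (SE 0.22). Of 9 genes of receptor desensitisation and scaffolding 5 were higher and 1 lower in each comparison, with Dlg4, the postsynaptic scaffold, higher by 2.31 (SE 0.35) and 1.65 (SE 0.34). The 3 RNA editing enzymes were higher in neurons in both comparisons, with Adarb1, an adenosine deaminase known to edit Htr2c, higher by 2.01 (SE 0.31) against microglia and 1.45 (SE 0.31) against astrocytes.

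Of 10 genes of serotonin synthesis, transport and breakdown 3 were higher and 2 lower in neurons against microglia, beside 18.8% and 28.2% of all genes, with a list median of −0.02 beside −0.62. Against astrocytes 0 were higher and 3 lower, beside 9.17% and 14.6% of all genes, with a list median of −0.76 beside −0.46. Whether counts this small differ from the shares over all genes was not tested. Maob, a monoamine oxidase of astrocytes, was higher in neurons against microglia by 1.10 (SE 0.31) and lower against astrocytes, at −1.02 (SE 0.30). Maoa averaged 17.8 ± 2.82 CPM in neurons, 34.6 ± 6.31 CPM in astrocytes and 13.1 ± 3.36 CPM in microglia. The 4 markers of serotonergic cell bodies summed to 4.24 to 16.9 CPM in neurons, 6.38 to 27.9 CPM in astrocytes and 14.4 to 25.9 CPM in microglia. Of the 4 none was called higher in neurons and 1 was called lower in each comparison, beside 28.2% and 14.6% of all genes. Their list median was −1.33 against microglia, beside −0.62, and −1.02 against astrocytes, beside −0.46.

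Receptors were also compared by how their levels moved over the 18 libraries, as Pearson's r of log2 CPM. Unlike the levels above, these log2 CPM used TMM factors, with a prior count of 2. These values describe libraries that share pools, fractions and depth. Htr1a and Htr2a had r = 0.915, Htr2a and Htr2c 0.889, Htr1b and Htr2a 0.863 and Htr2c and Htr5a 0.801. Htr6 stayed between −0.2 and 0.313 with every other receptor, and Htr3a between −0.535 and 0.161. Among 19653 named genes those most like Htr2a were Trp53i11 (r = 0.93), Mal2 (0.926) and Cpne5 (0.922), and those most like Htr2c were Col25a1 (0.944), Atp2b3 (0.934) and Chrm3 (0.925). Rnf150 (0.929), Foxp2 (0.928) and Cdh7 (0.922) were most like Htr1b, and Pianp (0.9), Rspo2 (0.895) and Tmem215 (0.894) most like Htr1a. Htr5a was nearest to Pcdha9 (0.914), Htr7 to Slc26a4 (0.896), Htr1f to Sntg1 (0.852) and Htr3a to Galnt10 (0.815), while the best matches of Htr6 and Htr4 were weaker, Bend7 at 0.738 and Pcsk5 at 0.732.

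The start regions of a pair of receptors that moved together, Htr2a and Htr2c, and of Htr6, which did not move with them, are printed to show how they differ in base composition. Entries of the RefSeq table of build GRCm38.p6 were used for 8 of the 10 receptors, each holding 250 bases before and 50 after the start. Htr3a had no entry, and Htr4 was left out. Letters run 5′ to 3′ on the strand of the gene, and capitals mark CG dinucleotides (CpG), which read the same on both strands.
The windows are chr14:74640624-74640923 (plus strand) for Htr2a, chrX:146962263-146962562 (plus strand) for Htr2c and chr4:139075521-139075820 (minus strand) for Htr6.
Htr2a: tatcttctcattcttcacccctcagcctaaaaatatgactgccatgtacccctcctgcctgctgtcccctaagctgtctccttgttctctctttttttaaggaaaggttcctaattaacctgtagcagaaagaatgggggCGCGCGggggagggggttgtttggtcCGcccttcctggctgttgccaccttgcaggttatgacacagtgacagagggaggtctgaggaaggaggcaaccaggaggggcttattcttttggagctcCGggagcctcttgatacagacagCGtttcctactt
Htr2c: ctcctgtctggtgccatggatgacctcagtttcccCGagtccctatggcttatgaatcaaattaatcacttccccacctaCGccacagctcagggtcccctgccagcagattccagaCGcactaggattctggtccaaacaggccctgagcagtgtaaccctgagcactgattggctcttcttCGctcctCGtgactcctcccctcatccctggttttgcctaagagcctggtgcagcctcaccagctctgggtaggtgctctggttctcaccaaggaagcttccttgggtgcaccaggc
Htr6: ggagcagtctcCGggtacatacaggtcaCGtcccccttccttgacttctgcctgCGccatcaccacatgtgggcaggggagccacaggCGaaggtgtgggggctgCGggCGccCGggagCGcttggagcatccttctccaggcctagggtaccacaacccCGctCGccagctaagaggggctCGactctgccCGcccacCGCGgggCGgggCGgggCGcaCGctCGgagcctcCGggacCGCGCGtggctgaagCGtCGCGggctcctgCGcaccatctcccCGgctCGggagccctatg
Htr2a held 6 and Htr2c 5 CpG in these 300 bases. The Htr6 start shown, the outer of 2 listed, held 29, and the other Htr6 start held 10. The median over 32851 promoter entries was 7, and 94.6% held at least 1. Among the other receptors with an entry used, Htr1a held 7, Htr1b 11, Htr1f 13, Htr5a 14 and Htr7 46. The contrast printed here thus depends on the start and on the pair that were shown. CANNTG, the E-box that basic helix-loop-helix factors bind and that reads the same on both strands, was in 72.3% of all entries. It was found in Htr6 and Htr5a and not in the windows of Htr1a, Htr1b, Htr1f, Htr2a, Htr2c and Htr7, which describes these letters only.

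Drug effects were then asked for within each fraction, with 2 pools against 2. edgeR called 0 of the 10 receptors for clozapine against vehicle, risperidone against vehicle and clozapine against risperidone in neurons, astrocytes and microglia, where 0% of all genes were called in each of the 9 comparisons. DESeq2 and the fit with batch as a block also called 0 of the 10 receptors. Over all genes DESeq2 called 19, 8 and 0 in neurons, 0 in each comparison of astrocytes, and 1, 0 and 1 in microglia, and with batch as a block edgeR called 0 to 10 genes a comparison. Over the 90 tests of receptors 4 had an unadjusted p under 0.05. The share of all genes with such a p was 2.81% for clozapine and 0.800% for risperidone against vehicle in neurons and 3.26% between the drugs. It was 1.25%, 0.645% and 1.06% in astrocytes and 3.17%, 4.28% and 7.38% in microglia in the same order. Libraries of the groups compared, 2 against 2, did not overlap for 5, 4 and 6 of the 10 receptors in neurons (27.6%, 18.0% and 27.3% of the 37310 genes tested over all libraries), for 3, 3 and 2 in astrocytes (29.6%, 17.3% and 21.2%) and for 4, 4 and 4 in microglia (29.6%, 37.1% and 41.5%), in the same order of comparisons. The 2 drugs share their vehicle libraries, and p-values measure the spread between pools of separate animals, 2 a group.

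In neurons Htr2a, the receptor both drugs block, stood at 15.3 and 25.0 CPM with clozapine, 17.2 and 26.4 CPM with risperidone and 20.5 and 25.6 CPM with vehicle (batch 1, batch 2). The groups overlapped, and the difference from vehicle was −0.07 (SE 0.41) for clozapine and −0.08 (SE 0.41) for risperidone. Htr2c, a further clozapine target, stood at 15.4 and 19.6 CPM with clozapine, 35.7 and 23.2 CPM with risperidone and 20.1 and 32.5 CPM with vehicle. Both clozapine libraries were below both vehicle libraries, as 21.6% of all genes were, at −0.48 (SE 0.36; unadjusted p = 0.217 and adjusted p = 1 in edgeR; −0.37 and −0.72 within batches), a value that ran from −0.86 to 0.09 with single libraries left out. Risperidone differed by 0.05 (SE 0.36). Htr1f stood at 8.53 and 7.24 CPM with clozapine, 4.29 and 3.92 CPM with risperidone and 6.69 and 4.22 CPM with vehicle. Both clozapine libraries were above those of vehicle and of risperidone, as 6.02% and 6.17% of all genes were, by 0.71 (SE 0.45) over vehicle and 1.13 (SE 0.46) over risperidone (unadjusted p = 0.0311 and adjusted p = 1 in edgeR; 0.91 and 0.81 within batches).

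The remaining receptors in neurons differed from vehicle by less than 1 on the log2 scale, none of them called. With clozapine Htr6 differed by 0.39 (SE 0.41), Htr1a by 0.16 (SE 0.43), Htr1b by 0.07 (SE 0.40), Htr7 by 0.04 (SE 0.47), Htr4 by −0.07 (SE 0.53), Htr5a by −0.25 (SE 0.43) and Htr3a by −0.73 (SE 1.12). With risperidone Htr3a differed by 0.45 (SE 1.10), Htr4 by 0.45 (SE 0.53), Htr1a by 0.42 (SE 0.43), Htr6 by 0.33 (SE 0.41), Htr5a by 0.28 (SE 0.43), Htr7 by 0.24 (SE 0.47), Htr1b by 0.06 (SE 0.40) and Htr1f by −0.42 (SE 0.46). Between the drugs, clozapine against risperidone, Htr3a differed by −1.18 (SE 1.11), Htr2c by −0.53 (SE 0.36), Htr5a by −0.52 (SE 0.43), Htr4 by −0.52 (SE 0.52), Htr1a by −0.26 (SE 0.43) and Htr7 by −0.20 (SE 0.46). Htr6 differed by 0.06 (SE 0.40), Htr2a by 0.02 (SE 0.41) and Htr1b by 0.01 (SE 0.40). A p above the threshold does not show that the drugs act alike.

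**Figure D5:**
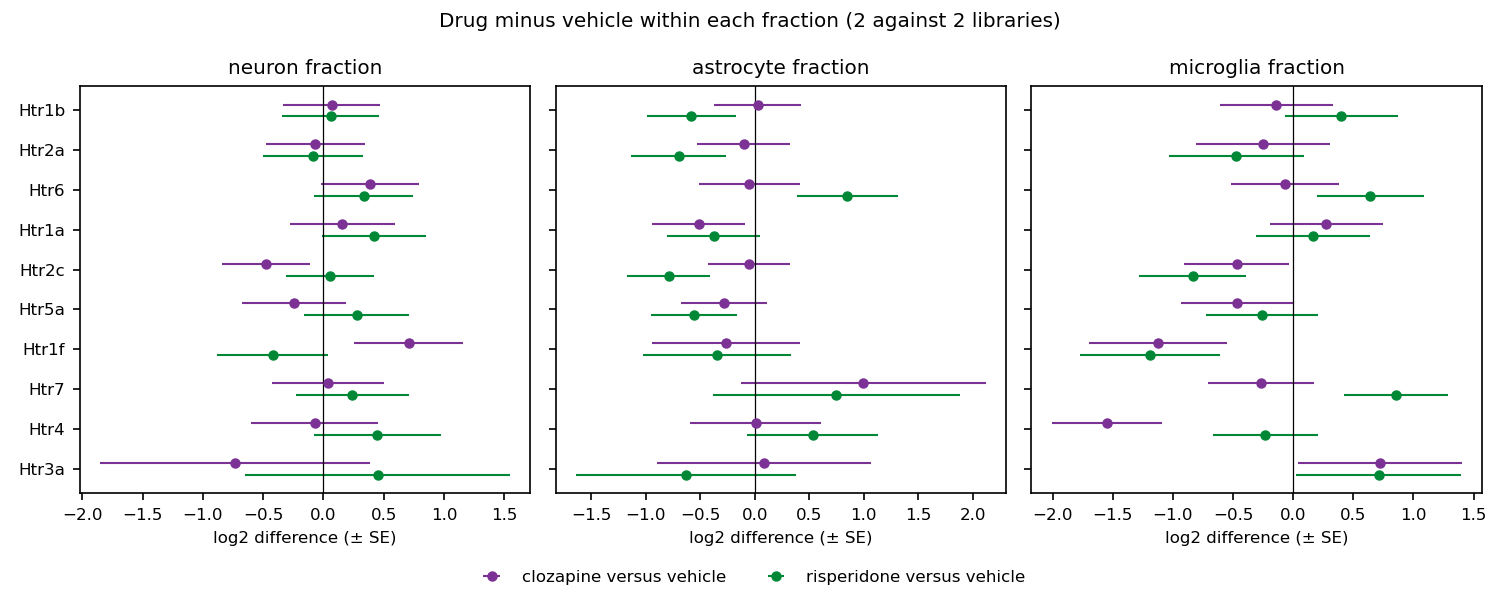
Drug minus vehicle for each receptor (horizontal axis, log2, ± SE, 2 against 2 libraries) in neurons, astrocytes and microglia, with clozapine and risperidone as separate points. The point farthest from 0 in microglia is Htr4 with clozapine at −1.55, in neurons the clozapine and risperidone points of Htr1f lie at 0.71 and −0.42, and none was called.

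In microglia Htr4 stood at 2.16 and 2.52 CPM with clozapine, 7.00 and 7.03 CPM with risperidone and 8.28 and 6.25 CPM with vehicle. The clozapine libraries held 16 and 24 counts and lay below those of vehicle and of risperidone, as 18.9% and 34.5% of all genes did. The difference was −1.55 (SE 0.46) from vehicle (unadjusted p = 0.00553 and adjusted p = 1 in edgeR; −1.72 and −1.16 within batches) and −1.32 (SE 0.46) from risperidone (unadjusted p = 0.0147 and adjusted p = 0.671 in edgeR; −1.5 and −1.32 within batches). At 0.440 CPM per kb the lower of them was close to the summed level of the olfactory and vomeronasal receptors in the same library, 0.449. Htr7 stood at 3.78 and 3.57 CPM with clozapine and at 8.14 and 11.0 CPM with risperidone, against 4.00 and 5.27 CPM with vehicle. Both clozapine libraries were below both risperidone libraries, as 34.5% of all genes were, and clozapine differed from risperidone by −1.12 (SE 0.43; unadjusted p = 0.0239 and adjusted p = 0.671 in edgeR; −1.01 and −1.5 within batches). In those risperidone libraries the off-tissue receptors also stood highest of the microglia, at 0.736 and 0.802 CPM per kb against 0.276 to 0.486 in the other 4, and their part in the Htr7 and Htr4 levels was not tested. Htr1f stood at 3.41 and 6.71 CPM with risperidone and 4.71 and 15.6 CPM with vehicle, a difference of −1.19 (SE 0.58; unadjusted p = 0.064 and adjusted p = 0.929 in edgeR) that ranged from −1.83 to −0.11 with single libraries left out. Over the 10 receptors the differences from vehicle in microglia ran from −1.55 to 0.72 with clozapine and from −1.19 to 0.86 with risperidone, the highest being that of Htr7.

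In astrocytes no receptor had an unadjusted p under 0.05. The smallest was that of Htr2c for risperidone, which stood at 6.29 and 13.2 CPM against 15.5 and 19.0 CPM with vehicle, at −0.79 (SE 0.38; unadjusted p = 0.0631 and adjusted p = 1 in edgeR; −1.24 and −0.51 within batches). Both risperidone libraries were below both vehicle libraries, as 11.5% of all genes were. Htr1a stood at 7.10 and 7.39 CPM with clozapine against 9.65 and 14.1 CPM with vehicle, at −0.51 (SE 0.43; unadjusted p = 0.252 and adjusted p = 1 in edgeR; −0.42 and −0.89 within batches). Htr6 stood at 5.89 and 9.13 CPM with clozapine against 12.6 and 16.1 CPM with risperidone, at −0.90 (SE 0.46; unadjusted p = 0.0768 and adjusted p = 1 in edgeR; −1.03 and −0.79 within batches). Over the 10 receptors the differences from vehicle in astrocytes ran from −0.51 to 0.99 with clozapine and from −0.79 to 0.85 with risperidone. Astrocyte risperidone pool 1 stood apart from the other astrocyte libraries in several receptors: it had the lowest Htr1a, Htr1b, Htr2a, Htr2c, Htr3a, Htr5a and Htr7 of the fraction, and also the lowest off-tissue level, 0.160 CPM per kb.

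Whether a drug effect differed between fractions was tested with interaction terms over all 18 libraries. edgeR called 0 of the 10 receptors in the 6 interactions, where 0% of all genes were called in 5 of them and 0.00268% in the risperidone effect in neurons minus that in astrocytes. Of the 60 tests of receptors 1 had an unadjusted p under 0.05: the clozapine effect on Htr1f in neurons minus that in microglia was 1.81 (SE 0.86; unadjusted p = 0.0471 and adjusted p = 1 in edgeR), where 3.97% of all genes had such a p. The clozapine effect on Htr1f in neurons minus that in astrocytes was 1.01 (SE 0.87), and that on Htr4 in astrocytes minus microglia was 1.53 (SE 0.77; unadjusted p = 0.0595 in edgeR). The risperidone effect on Htr2c in neurons exceeded that in microglia by 0.93 (SE 0.59) and that in astrocytes by 0.85 (SE 0.60), and that on Htr1b in astrocytes minus microglia was −0.94 (SE 0.67), none of them called. The replicate block and DESeq2 also called 0 of the 10 receptors in each interaction.

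Of the gene lists none had a member called in neurons for either drug or between the drugs. Pan-neuronal markers had a median of 0.26 with clozapine and −0.01 with risperidone, beside −0.02 and 0.26 for the 10 receptors and −0.04 and 0.00 for all genes. Striatal projection neuron markers had a median of −0.80 with clozapine and −0.08 with risperidone, and microglia markers −1.41 and −0.97.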

How the data were processed

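RNA from 18 libraries was measured by sequencing. The deposited values are raw counts per gene, made by the authors with featureCounts 2.0.8 on the GRCm39 annotation, per the file headers. The headers show paired-end input, exons summed by gene, reads given to every gene they overlap and no strand option. No source used here names the aligner, and FastQC is named in the submitters' processing notes. In 17 of 18 libraries more genes had 2 counts than 1, so a pair appears to count as 2 reads and counting error is wider than the totals imply.

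Totals were 4714468 to 13391163 counts. Genes passing filterByExpr were tested in R 4.3.3 with edgeR 4.0.16 (TMM, quasi-likelihood, two-sided, Benjamini-Hochberg over all genes tested, threshold 0.05). Fractions and interactions were fitted on all 18 libraries, drugs within a fraction on 6. Alternatives were a replicate block, DESeq2 1.42.0, RLE scaling, no filter, library totals, single batches, single treatments and each library left out. The numbers pair libraries by design, since the fractions of a pool come from the same animals; deviations from group means correlated at −0.388 to 0.122 between fractions of a pool, and at 0.099 to 0.447 within a fraction between libraries of the same batch. The tests were tried on simulated data whose spread was set narrower than that of these libraries. That trial does not show how the tests perform at the spread found here. Levels in CPM use total counts without TMM factors, and levels per kilobase use the exon length in the files. Correlations use log2 CPM with TMM factors.

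The receptors and gene lists were chosen with earlier results of these data known. All receptors were named, and the 3 genes most like each were found (mean of at least 1 CPM). All 3 are printed for Htr1a, Htr1b, Htr2a and Htr2c, and only the first for the other receptors. Genes of the lists were drawn from up to 4 per list by smallest p. The 148 list genes all matched a symbol.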

Additional observations from a re-analysis of the deposited data

Results flagged for a closer look

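In 3 of 30 groups of 6 libraries (10 receptors in 3 fractions) the highest library stood far from the others, where chance gives about 1 in 20 groups. Htr1f in microglia reached 15.6 CPM in vehicle pool 2, with a gap to the next library of 0.726 of the whole range against a critical value of 0.625. Htr4 in astrocytes reached 7.85 CPM in risperidone pool 2 (0.766). Htr6 in microglia reached 16.6 CPM in risperidone pool 1 (0.835), the microglia library with the lowest pan-neuronal marker level, 1381 CPM.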

How the results depend on the processing

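The number of receptors called, 5 against microglia, was 1 with library totals, 3 in batch 1 alone, 2 in clozapine pools, 1 in risperidone pools, 0 in vehicle pools and 3 to 6 with single libraries left out. Against astrocytes it was 4, but 1 in batch 1 alone, 0 in clozapine, risperidone and vehicle pools alone, and 3 to 5 with single libraries left out. Between astrocytes and microglia it was 0, but 1 in batch 2 alone and 0 to 1 with single libraries left out. By library totals 48.1% of all genes were called against microglia and 29.8% against astrocytes, beside 47.1% and 23.7% with TMM scaling. The shares of all genes called in single batches, in single treatments and with single libraries left out are not given here. Those counts of receptors thus cannot be read apart from how many genes each fit called. In clozapine pools alone the 2 receptors called against microglia were Htr1b and Htr1f, and Htr1f was not among the 5. In batch 2 alone 4 were called against microglia, without Htr1a, and 5 against astrocytes, with Htr5a added. The replicate block called Htr7 against astrocytes (1.20, adjusted p = 0.0486 in edgeR) and changed no other call of a receptor. Of the called differences none changed sign.

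Signs that did change were all of differences not called. Neuron versus microglia: Htr6 −0.19 by totals, −0.08 in batch 1 and −0.05 in risperidone pools; Htr1f −0.13 by totals, −0.26 in batch 2 and −0.47 in vehicle pools; Htr4 −0.25 by totals, −0.19 in batch 1 and −0.43 in vehicle pools; Htr3a 0.13 in vehicle pools. Neuron versus astrocyte: Htr4 −0.11 by totals, Htr3a 0.12 in batch 1 and 0.33 in risperidone pools, and Htr6 −0.10 with DESeq2 and with RLE, −0.03 unfiltered, −0.47 by totals, −0.02 in batch 1, −0.07 in batch 2, −0.55 in risperidone pools and −0.15 to 0.13 with libraries left out. Astrocyte versus microglia, batch 1: Htr2a 0.22, Htr6 −0.06, Htr1a 0.06, Htr2c 0.02, Htr1b 0.24, Htr1f 0.70 and Htr3a −1.10. In vehicle pools Htr1a gave 0.06 and Htr1b 0.03, in clozapine pools Htr7 0.52, Htr1b 0.22, Htr1f 0.04 and Htr4 0.65, and in risperidone pools Htr1f 0.11 and Htr3a −0.50. With libraries left out Htr1b ranged from −0.39 to 0.12, Htr1f from −0.54 to 0.15 and Htr3a from −0.28 to 0.36.

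In neurons clozapine minus vehicle by totals was −0.07 for Htr1b and −0.08 for Htr7. Clozapine minus risperidone was −0.15 by totals for Htr6, −0.01 with DESeq2 and with RLE and −0.12 by totals for Htr2a, and −0.01 in all 18 libraries, −0.02 with DESeq2 and with RLE and −0.13 by totals for Htr1b. With libraries left out clozapine minus vehicle ranged from −0.86 to 0.09 for Htr2c, −0.71 to 0.41 for Htr5a, −0.41 to 0.56 for Htr1a, −0.18 to 0.39 for Htr1b, −0.49 to 0.26 for Htr2a, −0.13 to 0.01 for Htr4 and −0.34 to 0.60 for Htr7. Risperidone minus vehicle ranged from −0.20 to 0.86 for Htr1a, −0.17 to 0.91 for Htr5a, −0.16 to 0.78 for Htr7, −0.76 to 0.39 for Htr2a, −0.65 to 0.55 for Htr1b and −0.35 to 0.59 for Htr2c. Clozapine minus risperidone ranged from −0.84 to 0.36 for Htr1a, −0.42 to 0.02 for Htr7, −0.03 to 0.13 for Htr6, −0.46 to 0.69 for Htr2a and −0.50 to 0.70 for Htr1b. The cause was not tested. Counts were as low as 1 for Htr7 and 3 for Htr3a in single libraries, where counting error is large.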
